A study of Mus musculus with 84 samples.

Results

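Of 81 WT MMC9 cells sequenced singly, 68 were kept for a comparison of cells in which Batf was detected with cells in which it was not. A kept cell had 10000 or more reads in genes, under 20% mitochondrial reads and under 10% immunoglobulin reads. The 48 Batf-detected cells (70.6% of those kept, exact 95% interval 58.3% to 81.0%) were chosen by their 10 or more Batf reads, and the 20 Batf-undetected cells by fewer than 10. Of the 13 cells not kept, 11 had too many mitochondrial reads, 2 too many immunoglobulin reads (1 cell had both) and 1 too few reads.

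MMC9s are mucosal mast cells that release IL-9. They were taken from small intestines of BALB/c mice made allergic to ovalbumin given with alum. The sort kept Lin- cells with high IL-4GFP and low β7-integrin that were c-Kit+, ST2+ and IL-17RB2-. All 81 cells are WT and the labels name no animal for them, so they form 1 sample and no p-value was made from cells. A further 3 bulk libraries of MMC9s, 1 per genotype, came from IL4RaY709F (gain of function of the IL-4 receptor alpha chain), IL4Ra-/- (its loss) and WT bone marrow progenitors. These were transferred into sensitized WT mice that were fed ovalbumin 7 times, 3 times a week, and RNA of 12 to 20 biological replicates was pooled for each library. The gate for bulk cells was not given in the sources used here.

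BATF is a basic leucine zipper factor of the AP-1 family that lacks a transactivation domain of its own. It binds DNA as a dimer with JUN proteins, and in lymphocytes this dimer binds composite sites together with IRF4 or IRF8. In T cells BATF is known for its part in the T helper programmes that make IL-17, IL-4, IL-21 and IL-9, and the title of the study places it downstream of IL-4 in MMC9s.

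Batf (ENSMUSG00000034266, GRCm38 chromosome 12, 85686669 to 85709087, plus strand) chose the groups, so its level is a description. Batf-detected cells had 18 to 2495 Batf reads with a median of 213, or 13.1 to 1747 CPM (the reads of a gene in 1000000 gene reads of its cell) with a median of 167. Batf-undetected cells had 0 to 8 reads, or 0 to 5.43 CPM. Levels inside the first group were spread over 2 orders of magnitude, with 6 cells at 10 to 49 reads, 29 at 50 or more but under 500 and 13 at 500 or more, and the top 5 cells held 38.5% of all 18536 Batf reads. Among the Batf-undetected cells, 12 had no Batf read and 6 had 1 read. Just above the threshold lay cells with 18 and 22 reads, and just below it cells with 8 and 6, so 3 cells fell within 5 to 20 reads.

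**Figure D1:**
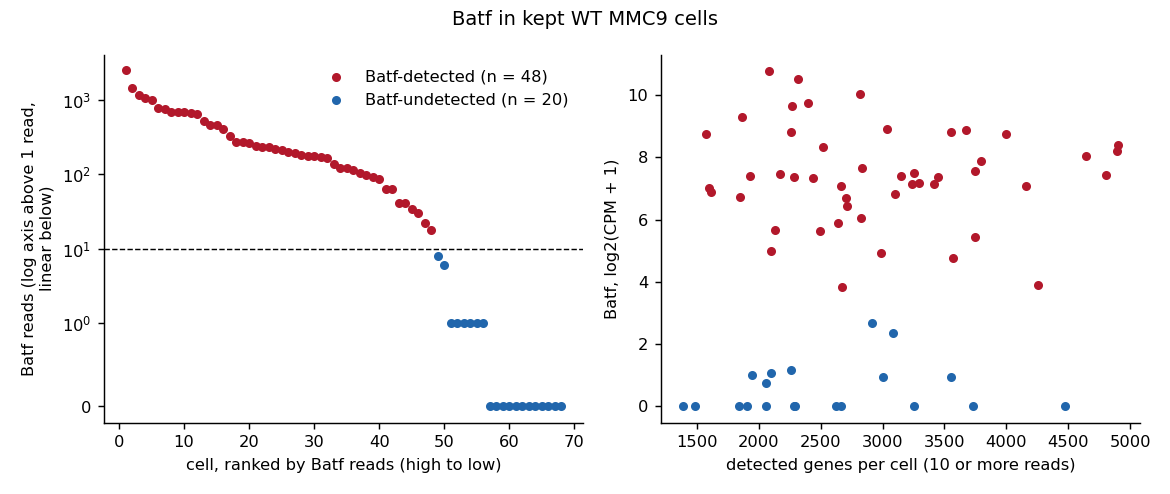
Batf reads in the 68 kept cells ranked from high to low (left; the dashed line is the threshold of 10 reads) and Batf in log2(CPM + 1) against the number of detected genes (right). Each point is 1 cell; Batf-detected cells span 18 to 2495 reads, Batf-undetected cells 0 to 8, and both groups extend over most of the range of detected genes.

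Batf-detected cells also had more detected genes, counted as genes with 10 or more reads. Their number ran from 1575 to 4905 with a median of 2823.5 in Batf-detected cells, and from 1387 to 4475 with a median of 2288.5 in Batf-undetected cells, and the ranges overlapped almost entirely. Gene reads per cell had a median of 1372131 in Batf-detected and 1183054.5 in Batf-undetected cells. Mitochondrial shares had medians of 4.73% in Batf-detected and 3.70% in Batf-undetected cells. After thinning of every cell to 200000 reads, with detection at 2 reads, the medians were 2861 detected genes in Batf-detected and 2349 in Batf-undetected cells, so the gap was as large at equal depth. Each gene therefore has a second difference, adjusted for detected genes in a linear fit.

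Both groups carried the mast cell identity that the labels give. Cpa3, the mast cell carboxypeptidase, ranged from 8324 to 34328 CPM (median 18117) in Batf-detected cells and from 4637 to 28551 CPM (median 17453) in Batf-undetected cells. Kit, the stem cell factor receptor and a gate gene, was detected in 47 of 48 Batf-detected and 20 of 20 Batf-undetected cells. All 14 mast cell markers were counted and 1 of them, Tpsb2, passed the size rule described next, with a median adjusted difference of 0.26 for the list against 0.03 for all genes counted. Their summed level was 40569 to 199130 CPM (median 82052) in Batf-detected cells and 27007 to 96106 CPM (median 78258) in Batf-undetected cells.

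A gene was counted when detected in at least 20% of the kept cells, which held for 4752 genes besides Batf. As most kept cells were Batf-detected, a gene could be counted more easily through them than through Batf-undetected cells. Differences are of mean log2(CPM + 1), Batf-detected minus Batf-undetected, and they understate changes of low genes. A gene passed the size rule when the difference was at least 1.5 in size and the adjusted difference had the same sign and was at least 1 in size. This rule is one of size and not a test. By it 310 genes were higher (6.52% of those counted) and 56 lower (1.18%) in Batf-detected cells. Counts of list members in this report are to be read against these shares. The median difference of all genes counted was 0.33 before and 0.03 after adjustment. By an adjusted difference of 1.5 alone 155 genes were higher and 148 lower. This balance is partly built in, since the detected genes of a cell are summed over the same genes that were fitted. What the excess of higher genes before adjustment goes with was not tested. Cells of 1 group differed widely: the median SD of a counted gene was 3.02 over Batf-detected and 3.04 over Batf-undetected cells, the difference exceeded the larger SD of its gene in 0 of the genes past the size rule, and no counted gene had groups that did not overlap.

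**Figure D2:**
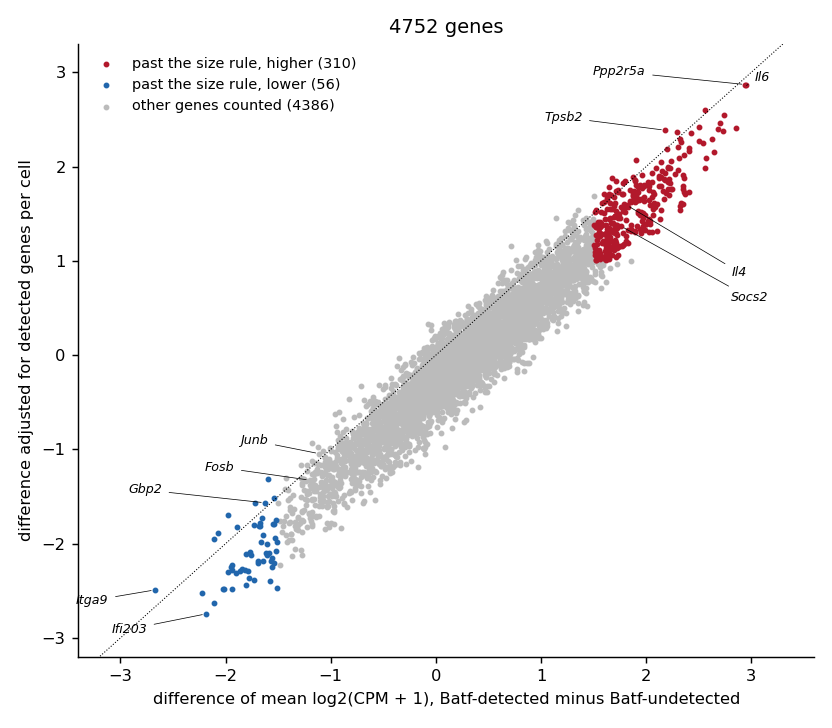
Difference of mean log2(CPM + 1) between Batf-detected and Batf-undetected cells for 4752 genes (x axis) against the same difference adjusted for detected genes per cell (y axis); each point is 1 gene, red and blue mark the 310 higher and 56 lower genes of the size rule, and the dotted line marks equal values. Most points lie below the line, as the adjustment moves the median of all genes to 0.03.

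Among cytokines, Il6 and Il4 were higher in Batf-detected cells. Il6 (ENSMUSG00000025746, chromosome 5, 30013114 to 30019981, plus strand), a proinflammatory cytokine that activated mast cells release, ranged from 1.67 to 4075 CPM with a median of 637 in Batf-detected cells. In Batf-undetected cells it ranged from 0 to 6195 CPM with a median of 12.7. The groups overlap over their whole range, and the cell with the most Il6 is Batf-undetected.

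Il6 was detected in 41 of 48 Batf-detected cells (85.4%, exact interval 72.2% to 93.9%) and in 10 of 20 Batf-undetected cells (50%, 27.2% to 72.8%). These intervals cover counting error only and overlap narrowly. Mean log2(CPM + 1) was 8.23 ± 3.15 in Batf-detected and 5.27 ± 3.94 in Batf-undetected cells (SD over 48 and 20 cells), a difference of 2.95 and of 2.86 after adjustment. Mean CPM differed much less, at 981 in Batf-detected against 724 in Batf-undetected cells, since a few Batf-undetected cells were very high.

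The Il6 contrast was seen among cells with few and with many detected genes. Among cells at or above the median of 2689.5 detected genes, Il6 was found in 24 of 27 Batf-detected cells (median 609 CPM) and 5 of 7 Batf-undetected cells (median 109 CPM). Below that median it was found in 17 of 21 Batf-detected cells (median 657 CPM) and 5 of 13 Batf-undetected cells (median 5.95 CPM). In reads thinned to equal depth the shares were 87.5% of Batf-detected and 60% of Batf-undetected cells. Il6 passed the size rule under all 16 other settings tried, with differences from 1.59 to 5.67. Some of these settings could not change the result of a counted gene. Batf detection at 10 CPM chose the same cells, and the wider gene filters only added genes. This holds for every count of settings given below.

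Il4 (ENSMUSG00000000869, chromosome 11, 53602982 to 53618669, minus strand), the type 2 cytokine whose reporter was part of the gate, also passed the rule. It ranged from 0 to 1174 CPM with a median of 148 in Batf-detected cells, and from 0 to 1101 CPM with a median of 40.7 in Batf-undetected cells. It was detected in 41 of 48 Batf-detected and 13 of 20 Batf-undetected cells (65%, 40.8% to 84.6%), with a difference of 1.81 and of 1.59 after adjustment. Il4 and Il6 were found together in 36 of 48 Batf-detected cells (75%, 60.4% to 86.4%) and 8 of 20 Batf-undetected cells (40%, 19.1% to 63.9%), and neither in 2 Batf-detected and 5 Batf-undetected cells. Il4 fell short of the rule under 5 of the 16 other settings, among them the cells at or above the median of detected genes, where 25 of 27 Batf-detected and 6 of 7 Batf-undetected cells had it.

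Il13, another type 2 cytokine, was detected in 10 of 48 Batf-detected and 2 of 20 Batf-undetected cells, at most 54.5 CPM, and was too rare to be counted. Il9, the cytokine that gives MMC9s their name, had 1139 reads in the kept cells, of which 1137 came from 1 Batf-undetected cell with 0 Batf reads (744 CPM). No Batf-detected cell had 10 Il9 reads (0 of 48, which by counting error alone allows a share of up to 7.40%; this limits cells of this 1 sample with 10 reads, not cells that express the gene). Of 18 cytokine genes 6 were counted, 2 of these were higher (Il4 and Il6), none was lower, and the median adjusted difference was 0.58. Among all counted genes 6.52% were higher. Tnf, found in 17 of 48 Batf-detected and 4 of 20 Batf-undetected cells, had a difference of 1.20 and did not pass. None of the 4 counted chemokines passed (median 0.41), with Ccl2, which attracts monocytes, at an adjusted 0.85.

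The promoters of the 2 cytokine genes past the rule are printed because BATF and JUN dimers bind AP-1 letters and STAT proteins downstream of IL-4 bind spaced TTC and GAA letters. Both come from RefSeq on GRCm38.p6 and span 250 bases before to 50 bases after a transcript start, 5′ to 3′ on the strand of the gene; the window of Il6 is chr5:30012864-30013163 (plus) and the one of 2 windows of Il4 with a match is chr11:53618616-53618915 (minus). Capitals mark matches on either strand to TGANTCA (AP-1) or to TTC and GAA with 4 bases between them (STAT6).
Il6: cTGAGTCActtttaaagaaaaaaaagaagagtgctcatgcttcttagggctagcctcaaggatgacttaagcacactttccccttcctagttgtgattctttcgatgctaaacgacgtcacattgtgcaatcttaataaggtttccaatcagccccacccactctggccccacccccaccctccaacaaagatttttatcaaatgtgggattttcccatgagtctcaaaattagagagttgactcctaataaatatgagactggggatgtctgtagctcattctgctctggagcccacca
Il4: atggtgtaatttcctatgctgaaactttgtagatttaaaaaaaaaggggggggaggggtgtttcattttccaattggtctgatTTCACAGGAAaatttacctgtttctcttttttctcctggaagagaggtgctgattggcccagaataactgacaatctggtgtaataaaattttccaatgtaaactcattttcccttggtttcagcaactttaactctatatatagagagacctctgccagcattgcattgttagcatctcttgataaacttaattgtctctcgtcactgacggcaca
The Il6 window holds TGAGTCA from position -249 and the Il4 window TTCACAGGAA from position -167, counted from the first base of the transcript. Of 27025 genes with a promoter in the table, 8.97% hold TGANTCA and 8.01% hold the spaced TTC and GAA in at least 1 window, on either strand; the matches printed do not overlap. A promoter was found for 242 of the 310 higher genes (78.1%), which is under 80%, so a comparison of the sets by motif is void.

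**Figure D3:**
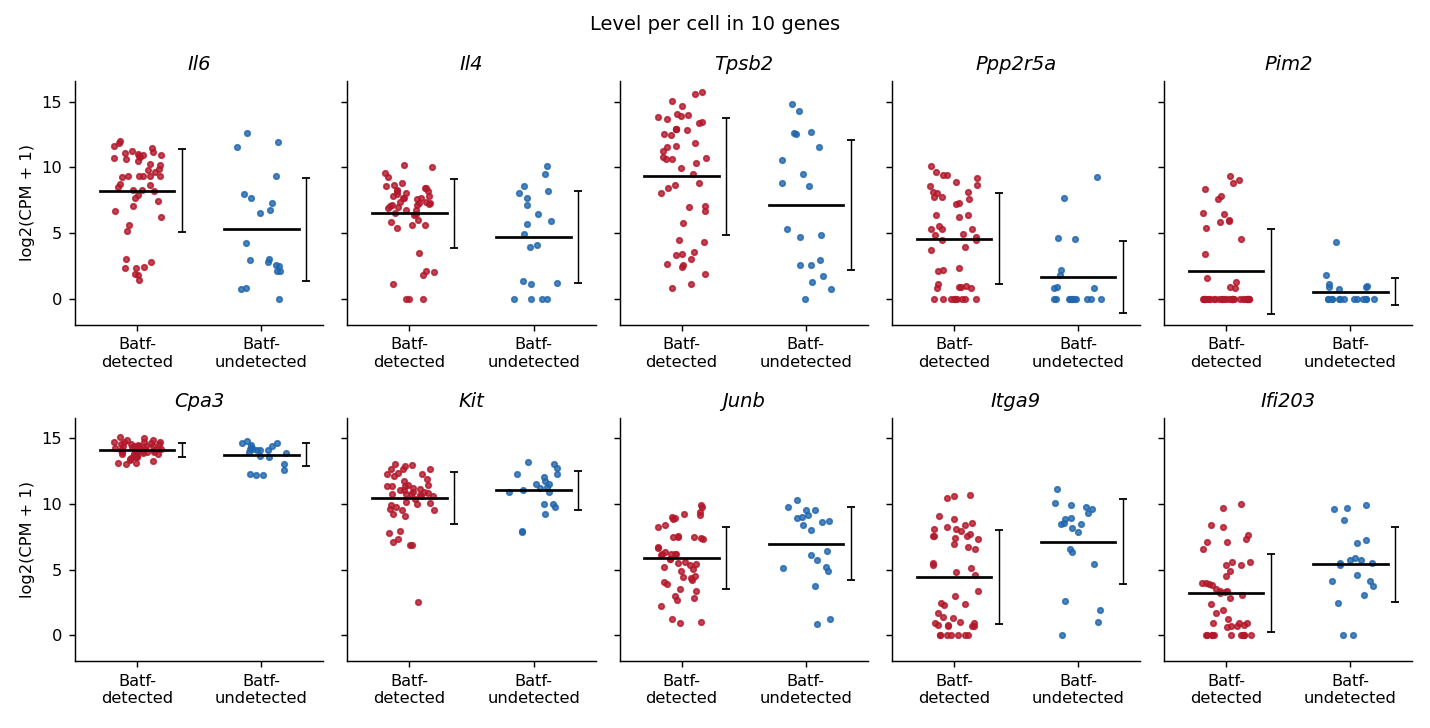
Level in log2(CPM + 1) of 10 genes in 48 Batf-detected cells (red, left) and 20 Batf-undetected cells (blue, right); points are cells, horizontal lines are means and the bars beside them are SDs. The groups overlap in each panel, Il6 has a mean of 8.23 in Batf-detected and 5.27 in Batf-undetected cells, and Cpa3 one of 14.12 in Batf-detected and 13.76 in Batf-undetected cells.

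Of the IL-4 receptor and its signalling genes, 1 passed the rule. Il4ra, the receptor alpha chain, was detected in 22 of 48 Batf-detected cells and 7 of 20 Batf-undetected cells, with a median of 1.96 CPM in Batf-detected and 1.18 CPM in Batf-undetected cells and a difference of 0.79. Stat6, the transducer of the receptor, was detected in 33 of 48 Batf-detected cells (median 128 CPM) and 10 of 20 Batf-undetected cells (median 37.6 CPM), with a difference of 1.25, short of the rule. It passed under 6 of the 16 other settings, and in opposite directions in cells with few and with many detected genes: the difference was 4.09 among cells below the median and -2.37 among those at or above it. Only 7 Batf-undetected cells lay at or above the median, where 545 of 4752 counted genes were higher and 436 lower. Below the median 463 were higher and 304 lower. Of 18 genes of the IL-4 and IL-13 receptor pathway 14 were counted, 1 was higher and none lower, with a median adjusted difference of 0.40. Among all counted genes 6.52% were higher and 1.18% lower. The higher gene of this pathway was Socs2, a cytokine-induced inhibitor of signalling (1.76, adjusted 1.37), found in 41 of 48 Batf-detected and 11 of 20 Batf-undetected cells. Socs2 fell short under 3 of the 16 other settings, among them cells at or above the median of detected genes, with a lowest difference of 0.01. Ptpn6, a phosphatase that restrains this signalling, had an adjusted difference of -1.76 with a raw one of -1.19 and did not pass. Socs1 and Socs3, other feedback inhibitors, were too rare to be counted, Socs1 in 1 Batf-detected and 2 Batf-undetected cells and Socs3 in 7 Batf-detected and 1 Batf-undetected cells.

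None of the listed AP-1, BATF and IRF partner factors passed the rule in the groups as defined, though some did under other settings. Of 18 AP-1, BATF and IRF genes 9 were counted, and the median adjusted difference was -0.96, against 0.03 for all genes counted. It was negative under all 16 other settings (-1.07 to -0.05), among them medians in place of means, which made no adjustment. Jun had a median of 111 CPM (0.85 to 1278) in Batf-detected cells and 223 CPM (0 to 4597) in Batf-undetected cells, with an adjusted difference of -1.13.

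Junb had a median of 61.7 CPM (0.91 to 966) in Batf-detected cells and 294 CPM (0.85 to 1272) in Batf-undetected cells, with an adjusted difference of -1.05. Fosb stood at -1.33, Fos at -0.96, Maf at -1.09 and Jund, near even, at -0.10 after adjustment, and the groups overlapped in each of these. Junb and Fos had the other sign under 2 of the 16 other settings each, and Fosb under 1. Jun passed the rule as lower under 3 of them (lowest difference -1.91), Junb under 2 (lowest -2.23) and Fosb under 4 (lowest -1.89). In the settings with these passes 65 to 304 of all counted genes were lower, against 56 in the groups as defined. Junb overlaps Prdx2 on the other strand, and reads of the 2 could not be told apart. Irf2 was the highest member at an adjusted 1.32, and passed as higher under 3 of the other settings. In those 3 settings 463 to 739 of all counted genes were higher, against 310 in the groups as defined. Irf4, the DNA-binding partner of BATF, was detected in 8 of 48 Batf-detected cells (16.7%, 7.48% to 30.2%) and 1 of 20 Batf-undetected cells (5%, 0.127% to 24.9%), too few to be counted, and Batf2, Batf3, Irf8 and Fosl1 had no read in any kept cell.

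Mast cell proteases differed mainly in 1 tryptase. Tpsb2 (ENSMUSG00000033825, chromosome 17, 25366305 to 25369098), a mast cell tryptase, ranged from 0.72 to 53964 CPM with a median of 1575 in Batf-detected cells. In Batf-undetected cells it ranged from 0 to 28695 CPM with a median of 212. The groups overlap, and detection was 42 of 48 Batf-detected (87.5%) against 13 of 20 Batf-undetected cells (65%), with a difference of 2.18 and of 2.39 after adjustment.

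The Tpsb2 contrast lay in cells with many detected genes, of which 7 were Batf-undetected. At or above the median of detected genes 24 of 27 Batf-detected cells (median 1564 CPM) and 3 of 7 Batf-undetected cells (median 5.03 CPM) had it. Below that median 18 of 21 Batf-detected cells (median 1634 CPM) and 10 of 13 Batf-undetected cells (median 1471 CPM) did. The near-identical Tpsab1 stood at an adjusted 1.11 without passing, and how reads were split between the pair is uncertain. Of 5 tryptases and carboxypeptidase A3, 3 were counted and 1 was higher (median 1.11), against 6.52% of all counted genes.

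None of the 7 counted chymases and granzymes of 11 passed (median 0.20), and the split of reads among these related genes is uncertain. Mcpt1, a mucosal mast cell chymase, had medians of 6932 CPM in Batf-detected cells and 3772 CPM in Batf-undetected cells, with an adjusted difference of 0.20, and Mcpt2 one of 0.18. Mcpt4 stood at 0.40, Cma1 at 0.70 and Gzmb, a granzyme that these cells share with cytotoxic lymphocytes, at 0.83 after adjustment, with a raw difference of 1.21 that was -1.69 among cells at or above the median of detected genes.

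Among 18 counted genes of granule amines, proteoglycans and eicosanoids, 2 were higher and 1 lower (median 0.27). The shares over all counted genes were 6.52% higher and 1.18% lower. The higher genes of this list were Ndst2, which sulfates heparin (2.32, adjusted 2.09), and Ext1, a heparan sulfate polymerase (1.91, adjusted 2.07). Ndst2 was found in 32 Batf-detected and 8 Batf-undetected cells and Ext1 in 25 Batf-detected and 5 Batf-undetected cells. The lower was Pla2g4a, the phospholipase that frees arachidonic acid (-1.66, adjusted -1.98), in 13 of 48 Batf-detected and 9 of 20 Batf-undetected cells; it fell short under 6 of the 16 other settings, Ext1 under 4 and Ndst2 under 3. Hdc, which makes histamine, and Tph1, which starts serotonin synthesis, stood at 0.67 and 0.80 without passing.

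Single surface receptors and signalling proteins passed the rule, against 6.52% of all counted genes called higher and 1.18% called lower. Of 18 counted mast cell surface receptors 3 were higher and none lower (median 0.17). Cd200r1, an inhibitory receptor (2.03, adjusted 1.76), was found in 18 of 48 Batf-detected and 2 of 20 Batf-undetected cells. Cd200r1 was counted only through its Batf-detected cells, the group where it is high. The others were the integrin chains Itga4 (1.70, adjusted 1.22), in 22 Batf-detected and 5 Batf-undetected cells, and Itgb7 (1.57, adjusted 1.40), in 44 Batf-detected and 15 Batf-undetected cells. Itga4 fell short of the rule under 6 of the 16 other settings, among them cells on either side of the median of detected genes (1.09 at or above the median and 1.44 below it), and Itgb7 and Cd200r1 under 4 each. The chains of Itga4 and Itgb7 pair as α4β7, a gut-homing integrin, and the β7 chain is a gate antigen. Kit stood at an adjusted -0.69 and Il1rl1, which encodes ST2, at 0.42.

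Of 22 counted genes of Fc epsilon receptor signalling 2 were higher (median -0.13), against 6.52% of all counted genes. The higher genes of this list were Ppp3ca, the catalytic chain of calcineurin (1.91, adjusted 1.63), and Rabgef1, a brake on receptor signalling (1.53, adjusted 1.54). Rabgef1 overlaps the pseudogene Gm15920, so its reads are uncertain. Rabgef1 fell short under 7 of the 16 other settings and Ppp3ca under 2. None of 14 counted mast cell transcription factors passed (median 0.12), with Gata2 at an adjusted 0.54, Mitf at 0.88 and Tal1 at -1.20. Nfil3, found in 13 of 48 Batf-detected and 3 of 20 Batf-undetected cells, was among those counted and stood at an adjusted 0.75.

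Of 19 counted immediate early genes 1 was higher and none lower (median -0.33): Egr2, a calcium-responsive zinc finger factor (1.60, adjusted 1.62), which fell short under 6 of the 16 other settings. For this list and the next ones, 6.52% of all counted genes were higher and 1.18% lower. Rela, an NF-kB subunit (1.65, adjusted 1.34), was the 1 higher of 14 counted NF-kB genes (median 0.43), and it was -1.02 among cells at or above the median of detected genes. Rela also fell short under 3 more of the 16 other settings. Pim2, a survival kinase, was the 1 higher of 10 counted survival genes (median -0.35), in 14 of 48 Batf-detected and 1 of 20 Batf-undetected cells (1.54, adjusted 1.35). Pim2, like Cd200r1 above, was counted only through its Batf-detected cells, the group where it is high. Pim2 fell short under 4 of the 16 other settings, with a lowest difference of 0.

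The 12 highest genes by the adjusted difference were Ppp2r5a, Il6, Cdv3, Uhmk1, Scamp2, Sppl2a, Rhog, Sdf4, Tpsb2, Sept9, Gmfg and Clint1, from 2.87 down to 2.29. Ppp2r5a, a regulatory subunit of protein phosphatase 2A, had a median of 29.04 CPM (0 to 1105) in Batf-detected cells and 0 CPM (0 to 603) in Batf-undetected cells. It was detected in 30 of 48 Batf-detected (62.5%, 47.4% to 76.05%) and 4 of 20 Batf-undetected cells (20%, 5.73% to 43.7%), with a difference of 2.94. Scamp2, a secretory carrier protein of vesicle membranes, was found in 30 Batf-detected and 6 Batf-undetected cells, and Rhog, a small GTPase, in 31 Batf-detected and 6 Batf-undetected cells. Sppl2a, an intramembrane protease, was found in 45 Batf-detected and 12 Batf-undetected cells. In reads thinned to equal depth Uhmk1 was found in 20 of 48 Batf-detected and 1 of 20 Batf-undetected cells. Uhmk1 was thus counted mainly through the group where it is high. Ppp2r5a and Scamp2, like Il6, passed under all 16 other settings. Clint1, an adaptor of clathrin-coated vesicles, had a difference of 2.63, but of -0.79 among cells at or above the median of detected genes.

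The 12 lowest were Ifi203, Mrfap1, Tut4, Itga9, Brd7, Nudcd3, Atg4a, Cnot9, Cdc40, Supt16, Cnpy4 and Mcmbp, from -2.75 up to -2.36. Ifi203, an interferon-inducible gene, had a median of 7.80 CPM (0 to 1007) in Batf-detected cells and 44.1 CPM (0 to 979) in Batf-undetected cells, found in 25 of 48 Batf-detected and 16 of 20 Batf-undetected cells. Itga9, an integrin alpha chain, had a median of 25.6 CPM (0 to 1655) in Batf-detected cells and 348 CPM (0 to 2210) in Batf-undetected cells, found in 27 Batf-detected and 16 Batf-undetected cells. The groups overlap for both, and Itga9 passed the rule under 15 of the 16 other settings. Ifi203 fell short under 3 of them, with -0.43 among cells at or above the median of detected genes, where 19 of 27 Batf-detected and 6 of 7 Batf-undetected cells had it. Cdc40, Supt16 and Mcmbp fell short under 6 of the 16 other settings each, Cnot9 under 5, and Atg4a and Cnpy4 under 4 each. Cnot9 overlaps Usp37 and the higher gene Gmfg overlaps Samd4b on the other strand, so their reads are uncertain.

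**Figure D4:**
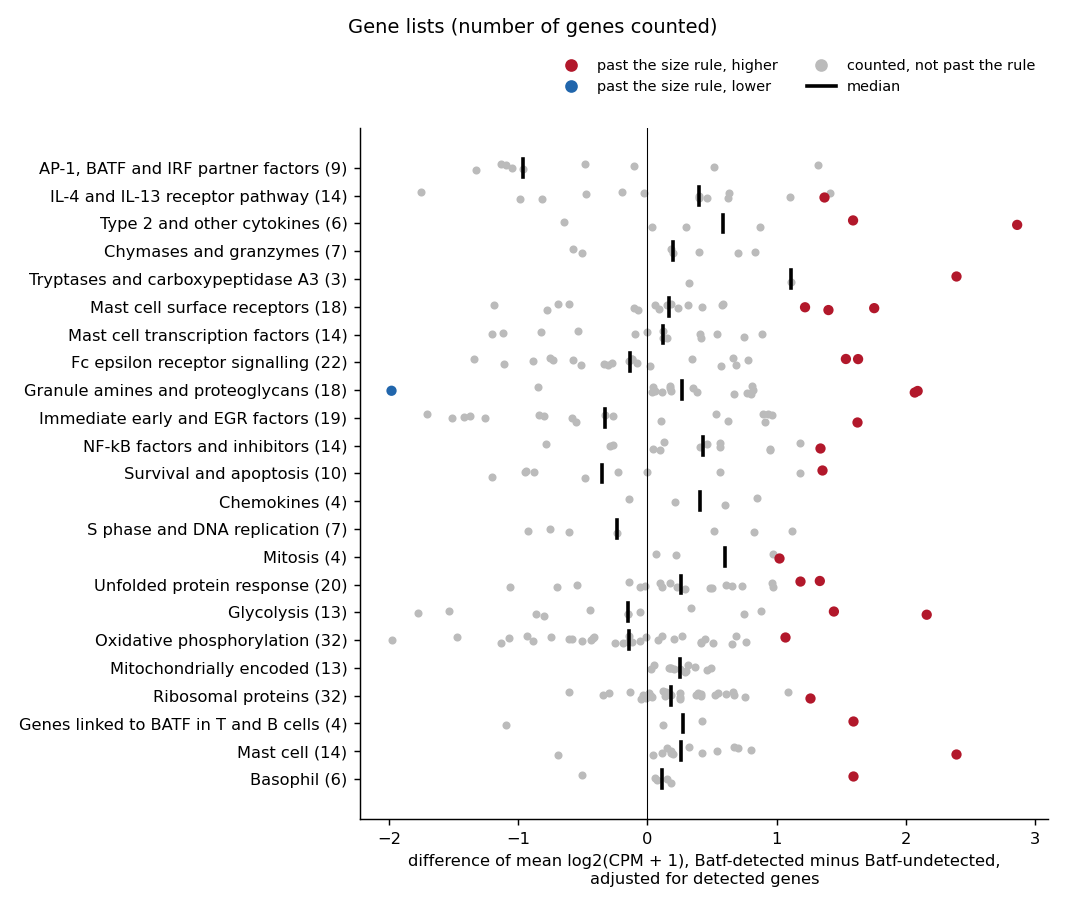
Adjusted difference of mean log2(CPM + 1) for counted members of pathway lists with at least 3 counted genes and of the mast cell and basophil marker lists; points are genes, red and blue mark members past the size rule and black bars are list medians. Members lie on both sides of 0 in most lists, and the AP-1, BATF and IRF list has the lowest median, -0.96.

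Gbp2, an interferon-induced GTPase, was lower in Batf-detected cells (-1.63, adjusted -1.57). It ranged from 0 to 255 CPM in Batf-detected cells and from 0 to 2529 CPM in Batf-undetected cells, with a median of 0 in both. It was found in 8 of 48 Batf-detected and 7 of 20 Batf-undetected cells, the groups overlap, and 48.9% of its reads came from 1 cell. Gbp2 fell short of the rule under 8 of the 16 other settings, among them reads thinned to equal depth, the cells without cycling ones and the highest cell of each group left out, with differences from -2.97 to 0.

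In the lists of growth, stress and metabolism single members passed the rule, against 6.52% of all counted genes called higher and 1.18% called lower. Of 4 counted mitosis genes Kif23, a kinesin of cell division, was higher (1.65, adjusted 1.02; median 0.60), but -0.11 among cells below the median of detected genes, and of 7 counted S phase genes none was (median -0.24). Kif23 also fell short under 5 more of the 16 other settings. Mki67, a proliferation marker, stood at an adjusted 0.22. A cell with 5 or more of 10 cell cycle genes was called cycling, which held for 8 of 48 Batf-detected cells (16.7%, 7.48% to 30.2%) and 1 of 20 Batf-undetected cells (5%, 0.127% to 24.9%). Of these 10 genes 2 were counted and neither passed (median 0.15).

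Of 20 counted genes of the unfolded protein response Hsp90b1 and Pdia6, both chaperones of the endoplasmic reticulum, were higher (median 0.26), with adjusted differences of 1.33 and 1.18. Hsp90b1 fell short under 5 of the 16 other settings and Pdia6 under 4. Of 13 counted glycolysis genes Slc2a3, a glucose transporter, and Hk1, a hexokinase, were higher at 2.16 and 1.44 after adjustment (median -0.15), while Eno1 and Pkm, enzymes late in the pathway, stood at -1.78 and -1.54 without passing. Slc2a3 fell short under 2 of the 16 other settings and Hk1 under 3. Uqcrc2, a core protein of complex III, was the 1 higher of 32 counted oxidative phosphorylation genes (median -0.14), and was -1.41 among cells at or above the median of detected genes. Uqcrc2 also fell short under 6 more of the 16 other settings. Rpl22 was the 1 higher of 32 ribosomal protein genes (median 0.18) and fell short under 5 of the 16 other settings. None of the 13 mitochondrially encoded genes passed (median 0.25). Of 21 genes linked to BATF in T and B cells 4 were counted, of which Il4 was the 1 higher (median 0.27), and Il21, Il17a, Ctla4, Tbx21 and Ccr6 had no read in any kept cell.

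Markers of other cell types were present to different degrees, and some were found in most cells of both groups. Neutrophil markers were detected in 0 kept cells, and eosinophil, epithelial and erythroid lists had no counted gene. T cell markers had summed levels of 0 to 1670 CPM (median 22.2) in Batf-detected and 0 to 1718 CPM (median 11.3) in Batf-undetected cells, with 8 of 12 detected in no cell. Cd3e, a T cell receptor chain, was found in 23 Batf-detected and 7 Batf-undetected cells, with an adjusted difference of 0.08. Macrophage or monocyte markers summed to 3.08 to 5326 CPM (median 912) in Batf-detected and 5.98 to 2823 CPM (median 736) in Batf-undetected cells. Of these 1 was counted, Cx3cr1, found in 44 of 48 Batf-detected and 18 of 20 Batf-undetected cells, and 8 of 16, Lyz2 and Adgre1 among them, were detected in no cell. Progenitor markers summed to 6.39 to 7857 CPM (median 1305) in Batf-detected and 28.8 to 3591 CPM (median 970.3) in Batf-undetected cells, and Cd34, one of them, was found in 47 of 48 Batf-detected and 20 of 20 Batf-undetected cells. Pecam1, an endothelial marker, was found in 32 Batf-detected and 10 Batf-undetected cells. B or plasma cell markers summed to 1.17 to 1308 CPM (median 25.6) in Batf-detected and 0.992 to 214 CPM (median 15.1) in Batf-undetected cells, with Sdc1, which marks plasma cells, at 0 reads. Basophil markers, several shared with mast cells, summed to 3967 to 26857 CPM (median 10236) in Batf-detected and 3445 to 16472 CPM (median 9715) in Batf-undetected cells, and their 1 higher gene of 6 was Il4 (median 0.11).

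Among the remaining cell type lists no gene passed the rule. Median adjusted differences were -0.16 for the 1 counted dendritic cell gene (H2-Ab1), 0.56 for 3 B or plasma cell genes, -0.35 for 2 T cell genes and 0.14 for 1 cytotoxic cell gene (Nkg7). They were 1.02 for 1 ILC2 gene (Il7r), 0.23 for Cx3cr1, 0.89 for 1 stromal or endothelial gene (Pecam1) and -0.10 for 3 progenitor genes. The part of such cells or RNA in the contrasts was not tested.

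The Batf-detected cells were also divided by their Batf level, the measure that chose them, as a description only. The 24 cells above 167 CPM of Batf had a median of 516 CPM of Il6 and 22 with detected Il6, and the 24 below had a median of 641 CPM and 19 cells. Il4 had a median of 161 CPM in the cells above and 128 CPM in those below, and Tpsb2 medians of 719 CPM above and 3073 CPM below. Stat6 was detected in 12 of the 24 cells above and 21 of the 24 below, and Irf4 in 6 above and 2 below. This split was chosen after other values were seen and carries no test.

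The bulk libraries, which the choice of cells did not use, asked whether genes past the size rule follow IL-4 receptor activity. They held 2521791 (IL4RaY709F), 2330628 (IL4Ra-/-) and 2299793 (WT) gene reads. Genes with 50 or more reads in either library of a pair were counted, and called at 2-fold with an interval that excluded a ratio of 1; in bulk, fewer cells of a type and less RNA per cell cannot be told apart. Between IL4RaY709F and IL4Ra-/-, 296 of the 310 higher genes were counted, and 17 of these (5.74%) were higher in IL4RaY709F, against 4.81% of the 4011 genes counted in cells and in bulk. A further 2 (0.676%) were lower, against 0.848%. The median log2 ratio of the 296 genes was 0.14, and that of all 4011 was 0.13.

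Of the 56 lower genes 49 were counted and none was called in either direction, with a median of -0.10. Neither share of called genes stood far from its background. In IL4RaY709F over WT 5 of 292 of the higher genes were called higher (1.3% in all genes counted) and none lower (0.254%). In IL4Ra-/- over WT 1 of 296 was higher (0.578%) and 3 were lower (1.08%), and of the lower genes none was called in either. These comparisons share the WT library.

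**Figure D5:**
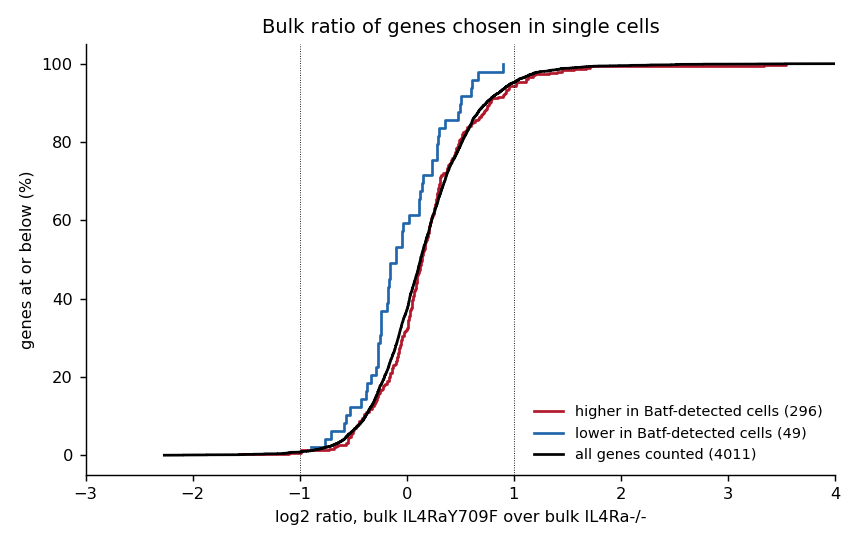
Cumulative share of genes (y axis, %) by log2 ratio of the bulk IL4RaY709F library over the bulk IL4Ra-/- library (x axis), for 296 genes higher in Batf-detected cells (red), 49 lower (blue) and all 4011 genes counted (black); dotted lines mark 2-fold. The red line follows the black one (medians 0.14 and 0.13), and the blue one lies to their left (median -0.10).

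Single genes stood out within this background, named here after their values were seen. Il6 had 789 CPM in IL4RaY709F, 299 CPM in IL4Ra-/- and 359 CPM in WT, a log2 ratio of 1.40 between the mutants (1.28 to 1.52). Tpsb2 had 6867 CPM in IL4RaY709F, 2100 CPM in IL4Ra-/- and 3522 CPM in WT (log2 ratio 1.71, 1.66 to 1.75). Pim2 had 209.8 CPM in IL4RaY709F, 18.1 CPM in IL4Ra-/- and 55.1 CPM in WT (log2 ratio 3.54, 3.10 to 4.01). Serpina3g, a protease inhibitor with near-identical neighbours, had 679.8 CPM in IL4RaY709F, 67.3 CPM in IL4Ra-/- and 157 CPM in WT (log2 ratio 3.34, 3.11 to 3.57).

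The others called higher were Sppl2a, Ext1, Tent5c, Tomm7, Napsa, Cited2, Lrch1, Il10ra, Lgals3bp, Trio, Cd86, Smim3 and Dtx4, with log2 ratios from 1.02 to 1.68. Il10ra, the IL-10 receptor chain, was at 1.56, and Cd86, a costimulatory ligand, at 1.13. Smc2, a condensin subunit (-1.56), and Prkar2b, a regulatory subunit of protein kinase A (-1.10), were called lower although higher in Batf-detected cells. Ppp2r5a (0.22), Il4 (0.40) and Ifi203 (-0.04) were not called, and Itga9, lower in Batf-detected cells, stood at 0.89. Batf itself had 456 CPM in IL4RaY709F, 51.5 CPM in IL4Ra-/- and 151 CPM in WT.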

How the data were processed

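Read counts per gene, whole and not normalized, were deposited by the authors for 81 single cells and 3 bulk libraries. The submitters' processing notes name HISAT and featureCounts of Subread 2.0.0, with strand setting, multi-mapping and molecular identifiers not given in the sources used here. Intervals cover counting error only, since reads may be copies of 1 molecule. Deposited coordinates matched GENCODE M21 (GRCm38) for 99.5% of the gene IDs found there. Gene symbols turned into dates (27) were restored by gene ID.

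CPM uses all gene reads of a cell, and a pseudocount of 1 CPM was added before log2. The adjusted difference is the group term of a least-squares fit with detected genes. Exact intervals are Clopper-Pearson at 95%. Bulk ratios were scaled with TMM (edgeR 4.0.16) and carry exact conditional binomial intervals; scran 1.30.0 and DESeq2 1.42.0 gave only alternative size factors. With 1 sample of cells and 1 library per genotype no p-value was computed. No doublet caller was run and no clusters were formed. The difference and call steps were tested on simulated data.

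The groups, the 37 gene lists (23 of pathways, 14 of cell types) and the rules were chosen with earlier results of these data known. Genes named are a standing set (Batf, partners, IL-4 receptor genes, cytokines, proteases and AP-1 factors), the 12 highest and 12 lowest adjusted differences past the size rule, and, for each list, members past it and up to 3 with the largest adjusted difference. Some genes of these lists, and the interferon response list as a whole, are not reported here. Alternatives changed the Batf threshold, cell filters, scaling, depth, pseudocount, gene filter, cells used and the summary. With medians as the summary no adjustment for detected genes was made, so the adjusted part of the size rule had no effect there.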

Additional observations from a re-analysis of the deposited data

Results flagged for a closer look

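Batf reads were present in cells outside the comparison. Of the 13 cells not kept, 3 had 10 or more Batf reads, namely 507 (1732 CPM, 1280 detected genes), 160 (536 CPM, 633 detected genes) and 45 (94.6 CPM, 1529 detected genes). They had mitochondrial shares of 45.7%, 71.6% and 32.3% in that order, which is why they were not kept.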

How the results depend on the processing

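The counts of genes past the size rule (310 higher, 56 lower) depend on the settings, and the cause was not tested. With Batf detection at 1 read 56 cells were Batf-detected and 166 genes lower; with only cells of 0 Batf reads as Batf-undetected, an alternative chosen after seeing the data, 157 were lower. Without the mitochondrial and immunoglobulin filters 6 genes were lower, and their bulk median between the mutants was 0.60. A pseudocount of 10 CPM left 21 higher and 3 lower. Cells at or above the median of detected genes gave 545 and 436, and those below it 304 lower. Leaving out the highest cell of each group per gene gave 473 and 32. Medians in place of means, with no adjustment for detected genes, gave 739 and 205. The adjusted difference alone, also chosen after seeing the data, gave 155 and 148. Of the 310 higher genes 162 were among the 545 and 182 among the 463 higher in cells below the median. Signs turned, with the gene past the rule before or after, for Clint1 (-0.79), Rela (-1.02), Uqcrc2 (-1.41), Stat6 (-2.37) and Gzmb (-1.69) in cells at or above the median of detected genes, for Kif23 (-0.11) below it, and for Bcl2l1 (1.63) and Ccl3 (-1.74) with Batf detection at 1 read. Of the other comparisons of genes named in the text under an alternative in cells, 1688 kept their side of the rule, 149 fell short and 75 came to pass. The 1688 include settings that could not move a counted gene, namely Batf detection at 10 CPM and the wider gene filters. Total-read scaling moves each bulk ratio between the mutants by -0.24 log2, and DESeq2 factors by -0.02. Limits are the 20 Batf-undetected cells, 1 sample of cells with no animals named and no replicate libraries. No paired analysis was possible because the cells are 1 sample and each genotype has 1 library.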
